A study of Mus musculus with 32 samples.

Results

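Messenger RNA levels of 10 growth arrest and stress genes, Plk2, Plk3, Cdkn1a, Gadd45a, Gadd45b, Gadd45g, Btg1, Btg2, Ier3 and Trp53inp1, were described across 6 populations of mouse bone marrow cells. The genes were found by gene symbol on both Affymetrix chip types of the series, which gave 10 of 18193 named genes and 18 probe sets of 45037, 16 of them on chip A and 2 on chip B. Of these, 17 rose above the filter on dim signals, as did 28606 probe sets in all, and each of the 10 genes kept at least 1 tested probe set. Plk2 was selected on its measured rise in stem-enriched cells over the others, so its own levels are given as a description without a test. The 9 other genes were added as known relatives or partners in growth arrest and stress responses, with earlier results of these data known.

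The populations were obtained by removing cells that carry markers of mature lineages (Lin) and sorting the rest by flow cytometry on 2 surface proteins, Sca-1 and cKit, to an estimated purity over 90%. The stem-enriched samples, which the instrument records describe as Lin-Sca1+cKit+, hold the most primitive cells. The Lin-Sca-1-cKit+ samples, called cKit-positive here, are taken by the submitters as later progenitors, and the Lin-Sca-1-cKit- samples, called cKit-negative here, as progenitors leaning to the lymphoid side. Lineage-depleted marrow (Lin-), made with a SpinSep enrichment kit, and unsorted total marrow completed the design. Each of these 5 populations had 3 samples, and Lin-Sca-1+cKit- cells had 1 sample. No treatment or genetic change is given for any group, and the sources used here give no strain, age or sex of the mice. The labels do not say whether the 3 samples came from separate animals, so p-values measure only the spread between these samples. In these bulk RNA samples, a lower level in fewer cells of a type and less RNA per cell cannot be told apart.

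The 10 genes meet in the control of cell division under stress. Cdkn1a encodes p21, which binds and blocks cyclin-dependent kinases, and its gene is a classic target of the tumour suppressor p53. The Gadd45 proteins bind stress-activated MAP kinase kinase kinases and PCNA, and the Btg proteins slow growth partly by recruiting the CCR4-NOT complex that shortens poly(A) tails. Plk2 and Plk3 are polo-like kinases that, unlike the mitotic kinase Plk1, behave as early response genes. Ier3 is an immediate early gene with a role in survival signalling, and Trp53inp1 is a p53-induced protein that acts in stress and autophagy. In marrow, p21 and other brakes of the cycle are known for their part in keeping stem cells quiescent.

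Promoter windows of 9 of the 10 genes were found in RefSeq (GRCm38.p6, 250 bases before to 50 after a start), with 2 windows for Cdkn1a. Stretches of 90 bases upstream of the start are shown for 5 genes whose windows hold a cyclic AMP response element, its 5-base core or a p53 core, written 5′ to 3′ on the gene's strand with the matches in capitals. Plk2 and Cdkn1a are shown because they were highest in stem-enriched cells, and Plk3, Btg1 and Btg2 because they were low in cKit-positive cells.
Plk2, chr13:110394941-110395030, plus strand, full element in capitals: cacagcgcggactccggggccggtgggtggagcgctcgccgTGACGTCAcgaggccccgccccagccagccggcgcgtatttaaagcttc
Btg2, chr1:134079273-134079362, minus strand, full element in capitals: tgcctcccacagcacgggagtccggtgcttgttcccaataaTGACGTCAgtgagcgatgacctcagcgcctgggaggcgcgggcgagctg
Plk3, chr4:117134014-117134103, minus strand, short element in capitals: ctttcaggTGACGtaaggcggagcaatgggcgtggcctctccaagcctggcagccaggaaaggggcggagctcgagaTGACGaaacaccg
Btg1, chr10:96616855-96616944, plus strand, short element of the other strand in capitals: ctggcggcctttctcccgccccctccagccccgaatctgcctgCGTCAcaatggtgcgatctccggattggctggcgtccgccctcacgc
Cdkn1a, upstream start, chr17:29090889-29090978, plus strand, p53 core in capitals: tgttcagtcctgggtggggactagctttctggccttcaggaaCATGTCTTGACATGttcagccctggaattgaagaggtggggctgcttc

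The full element TGACGTCA, searched on both strands like all motifs, was found in the windows of Plk2, at positions -62 to -55 from the start, and Btg2, at -166 to -159. Among all 32851 promoter windows 1.55% held it. The shorter TGACG, which every full element contains, was found in 4 of the 9 genes (Plk2, Plk3, Btg1 and Btg2) and in 17.8% of all windows. The p53 core, a pair of CATG blocks with 6 bases of any kind between them, was found in the window of the upstream Cdkn1a start, at positions -48 to -35, against 0.49% of all windows. A kappa B site was found in the window of Ier3 (3.9% of all windows), and the CArG box bound by SRF in none (1.47%). Of general promoter elements, TATAAA was found in 3 of the member genes and in 12.4% of all windows. CCAAT was found in 6 genes (33.8% of all windows), and GGGCGG in 8 (32.7%). These matches describe letters in the windows and were not tested against the expression values.

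Stem cell marker signal was highest in the stem-enriched samples, while granulocyte markers remained in the populations labelled as lineage-depleted. The summed signal of 8 stem cell markers was 48649 to 65541 in the stem-enriched samples, and at most 23720 in any other population. Kit itself had a log2 signal of 12.24 ± 0.09 (SD, n = 3) in stem-enriched and 12.19 ± 0.13 in cKit-positive cells, against 9.79 ± 0.46 in cKit-negative cells. The summed signal of 9 granulocyte markers was 395214 to 672085 in lineage-depleted marrow and 465090 to 686813 in cKit-negative cells, the highest of which overlapped total marrow (681016 to 833362). Median signal per array was 451.4 to 877.4 on chip A and 786.8 to 1004 on chip B. One cKit-positive library, replicate 2, was unlike the rest, with correlations of 0.567 to 0.689 with the other samples against 0.738 to 0.934 among the others. The log2 ratio of 3 prime to 5 prime Gapdh control signal on chip A, a measure of RNA integrity and amplification, was 0.38 in that library. It was highest in the stem-enriched samples (3.84 to 4.17), and its part in the results below was not tested beyond a fit with the ratio as a covariate. Chip lot and scan day were mostly tied to population, and among the 5 replicated populations only cKit-positive and cKit-negative samples shared a scan day.

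**Figure D1:**
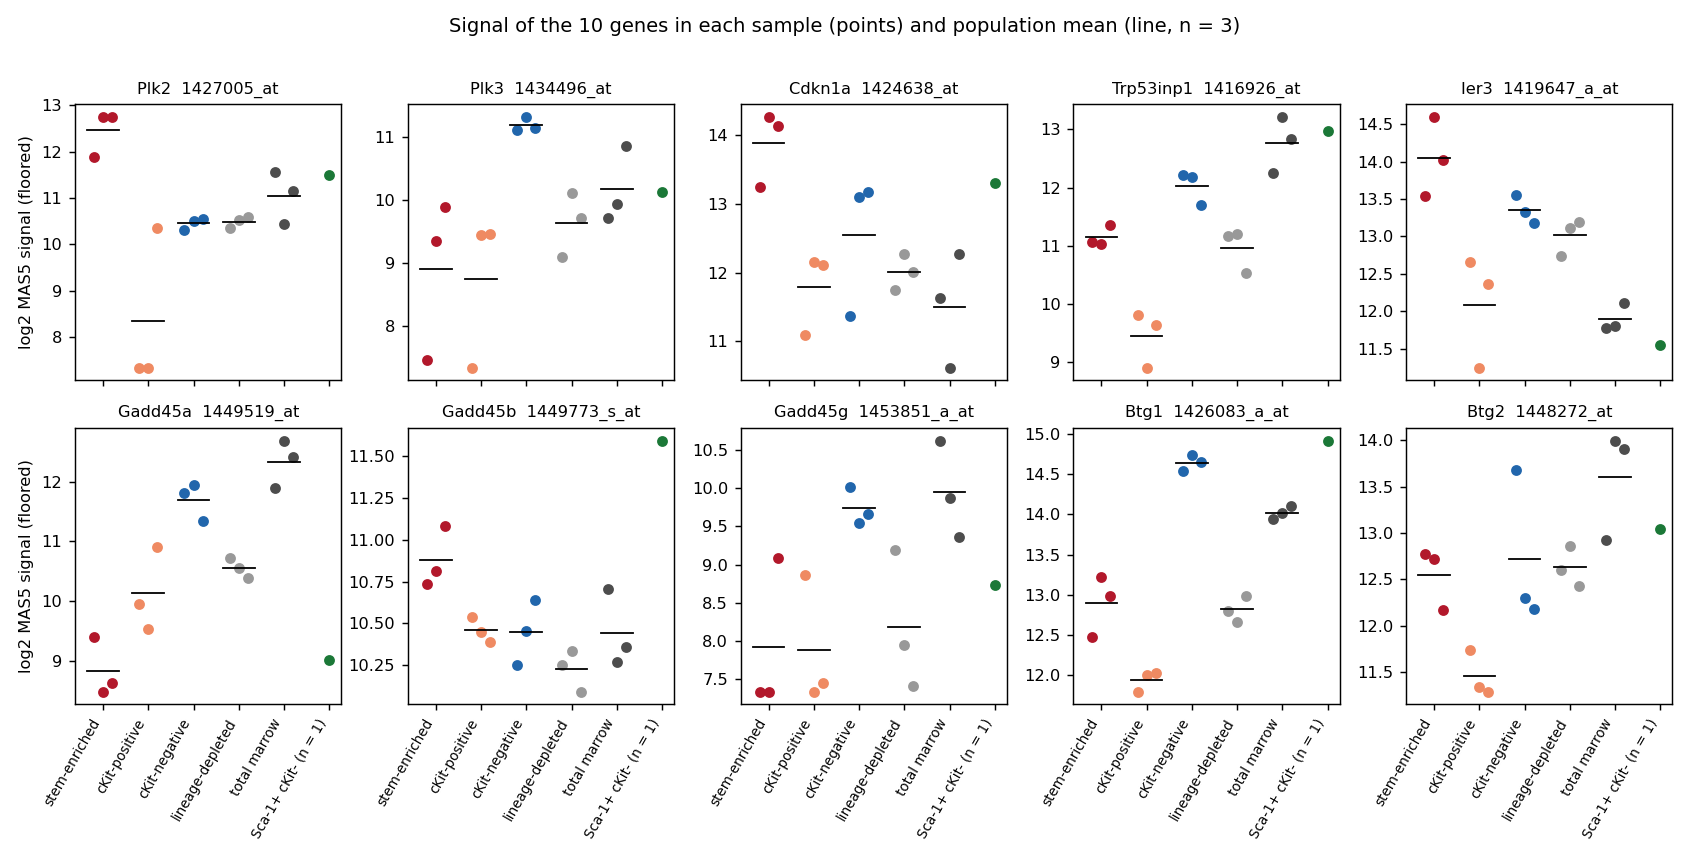
Log2 MAS5 signal (vertical axes, with signals under the 25th percentile of the chip raised to it) of the probe set that represents each of the 10 genes, in every sample of the 6 populations. Points are samples and lines are means of 3 samples. Plk2, Cdkn1a and Ier3 have their highest means in the stem-enriched cells, Gadd45a its lowest, and Gadd45b stays within 10.23 to 10.88 in all 5 population means.

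Differences between populations were tested with limma on log2 signals, with Benjamini-Hochberg adjustment over all tested probe sets of both chips and a threshold of 0.05. Over the 5 populations, 11 of 15 member probe sets other than those of Plk2 passed the F test, from 8 of 9 genes, against a background of 17.3% of all tested probe sets. The genes were chosen with earlier results of these data known, so member shares above the background here and below give no independent support. The gene without a call was Gadd45b. The contrast with the most calls set cKit-positive against cKit-negative cells. Without Plk2, 10 of 15 member probe sets from 7 genes were lower in cKit-positive cells and none was higher (background 11.5%). Against total marrow the cKit-positive cells were lower in 8 of 15 probe sets from 5 genes and higher in none (background 17.1%). With Plk2, whose levels are a description and not a test, the counts were 11 of 17 from 8 genes and 9 of 17 from 6 genes. The 2 comparisons share the cKit-positive samples.

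The stem-enriched cells differed from cKit-positive cells in 5 of 15 probe sets, all higher and from 4 genes (background 2.23%), and from cKit-negative cells in 4 of 15, all lower and from 3 genes (background 8.48%). Against total marrow 9 of 15 were called, 3 higher and 6 lower (background 14.4%), and against lineage-depleted marrow 2 of 15, with 1 each way (background 2.35%). Lineage-depleted marrow was lower than total marrow in 4 of 15 probe sets (background 4.23%). The cKit-positive cells were lower than lineage-depleted marrow in 3 of 15 (background 1.26%), and cKit-negative cells were higher than it in 2 of 15, both of Btg1 (background 1.54%). Between cKit-negative cells and total marrow 1 of 15 was called, Ier3 (background 0.675%). Of the 50 calls in the 10 contrasts, with 2 of Plk2 included, 27 stood in all 15 fits that each left out 1 sample, and 16 stood in every alternative that was tried.

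**Figure D2:**
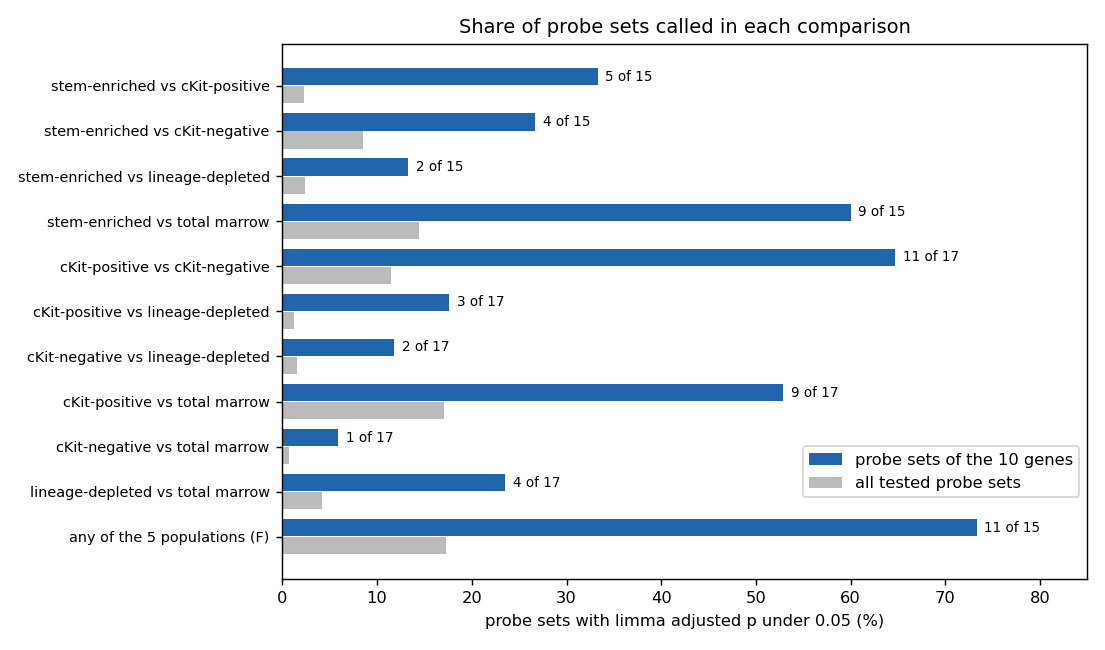
Percentage of probe sets with a limma adjusted p under 0.05 (horizontal axis) in each comparison, for the probe sets of the 10 genes (blue, with counts; Plk2 left out of comparisons with stem-enriched cells and of the F test) and for all 28606 tested probe sets (grey). The member share is highest in the F test (73.3%) and among the contrasts between cKit-positive and cKit-negative cells (64.7%), where the grey bars stand at 17.3% and 11.5%. The second share counts Plk2, and without it 10 of 15 were called. The genes were chosen with earlier results of these data known.

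Plk2, a kinase of centriole duplication and of stress responses, was measured by probe set 1427005_at on chip A. Its signal was 3799, 6842 and 6910 in the stem-enriched samples and 132.4, 127.5 and 1305 in the cKit-positive samples, of which the first 2 lay under the floor of 162.3. In cKit-negative cells it was 1273, 1450 and 1503, in lineage-depleted marrow 1318, 1480 and 1540, and in total marrow 3044, 1381 and 2290. All 3 stem-enriched samples lay above the 12 others, which is how the gene had been chosen. The difference of means was 4.12 ± 0.57 (log2, SE) against cKit-positive cells, a value that depends on the floor, and 1.41 ± 0.57 against total marrow, the next highest population.

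The other 12 samples entered the choice of Plk2 as the level that the stem-enriched cells exceeded, so their order is a description too. The mean in cKit-positive cells was the lowest, with log2 differences of -2.71 ± 0.57 from total marrow, -2.15 ± 0.57 from lineage-depleted marrow and -2.11 ± 0.57 from cKit-negative cells. These values rest on replicates 1 and 2 of the cKit-positive cells, since replicate 3 lay within the range of the cKit-negative samples. Among the samples that shared a scan day the difference from cKit-negative cells was -1.61, and within chip lot 1 it was -1.68. The cKit-negative, lineage-depleted and total marrow means lay closer together, with differences of -0.04 to -0.60 ± 0.57, and their samples overlapped.

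The second Plk2 probe set, 1443780_at on chip B, did not follow the first. Its signal was 152.8, 1126 and 1191 in the stem-enriched samples, where the first lay at the floor, and 931.3 to 1938 in the 12 other samples. Its mean in stem-enriched cells was the lowest of the 5 populations, and the stem-enriched samples overlapped the others. The correlation between both probe sets over the 15 samples was -0.175, so the rise of Plk2 rests on the chip A probe set alone.

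Plk3, the relative of Plk2 that also responds to stress, was highest in cKit-negative cells instead. Its signal there was 2203, 2552 and 2247, against 177.4, 651.4 and 942.6 in stem-enriched and 90.01, 698.2 and 701.9 in cKit-positive cells. Lineage-depleted marrow gave 548.4, 1102 and 836.5, and total marrow 838.5, 973.8 and 1853. All 3 cKit-negative samples lay above every other sample of the 5 populations. The difference between stem-enriched and cKit-negative cells was -2.29 ± 0.59 (adjusted p = 0.0215, range over alternatives 0.00252 to 0.107), a level 4.88-fold lower in the stem-enriched cells. That between cKit-positive and cKit-negative cells was -2.44 ± 0.59 (adjusted p = 0.012, range 0.00151 to 0.177), and -1.73 (adjusted p = 0.0343) among the samples that shared a scan day. The first call was lost without stem-enriched replicate 1 (adjusted p = 0.1) or without cKit-negative replicate 1 (0.0592), 2 (0.0818) or 3 (0.0524), and the second without cKit-negative replicate 2 (0.0525). Within chip lot 1 neither passed (-2.33, adjusted p = 0.0817, and -1.77, adjusted p = 0.177). The difference between cKit-negative cells and total marrow, the next population in the order, was 1.02 ± 0.59 (adjusted p = 0.587).

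Cdkn1a, the p21 gene, was highest in the stem-enriched cells. Probe set 1424638_at gave 9698, 19716 and 18023 there, 2195, 4559 and 4417 in cKit-positive cells, and 2634, 8764 and 9254 in cKit-negative cells. Lineage-depleted marrow gave 3433, 4927 and 4131, and total marrow 3177, 1572 and 4932. Every stem-enriched sample exceeded all 12 others, and replicates 2 and 3 of the cKit-negative cells came closest. Cdkn1a was higher in stem-enriched cells than in total marrow by 2.38 ± 0.47 (5.19-fold, adjusted p = 0.00263, range over alternatives 0.00064 to 0.291), and this call stood without any 1 sample. It was higher than in cKit-positive cells by 2.09 ± 0.47 (adjusted p = 0.0285, range 0.00919 to 0.186) and than in lineage-depleted marrow by 1.87 ± 0.47 (adjusted p = 0.0468, range 0.00467 to 0.833).

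The difference in Cdkn1a from cKit-negative cells, 1.34 ± 0.47, did not pass (adjusted p = 0.0966), and the 4 populations other than stem-enriched cells did not differ from each other beyond their spread (adjusted p = 0.336 to 0.869). The call against cKit-positive cells was lost without stem-enriched replicate 2 (adjusted p = 0.129) or 3 (0.124) or cKit-positive replicate 1 (0.0607), and within chip lot 1 the difference was 1.75 (adjusted p = 0.0538). The call against lineage-depleted marrow was lost without any of 8 samples: stem-enriched replicates 2 (0.202) and 3 (0.19), cKit-positive replicate 3 (0.0525), cKit-negative replicate 2 (0.0528), total marrow replicate 1 (0.0655), and lineage-depleted replicates 1 (0.164), 2 (0.104) and 3 (0.121). With chip lot as a block the differences from lineage-depleted and total marrow were 0.43 (adjusted p = 0.833) and 1.10 (0.291). All stem-enriched arrays of chip A came from 1 lot, and its part in these values was not tested further. A dimmer second probe set, 1421679_a_at, gave 433, 2203 and 2700 in stem-enriched cells and 170.9, 116.3 and 91.02 in total marrow, the last 2 under the floor. Its difference there, 3.05 ± 0.81, was called (adjusted p = 0.0179) but lost without stem-enriched replicate 2 (0.0817) or 3 (0.0915) or total marrow replicate 2 (0.0601) or 3 (0.0557), and with chip lot as a block it was 0.06 (0.985). Over the 15 samples both Cdkn1a probe sets correlated with r = 0.745.

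Trp53inp1, a second gene induced by p53, had another order of populations. Probe set 1416926_at gave 4890, 9534 and 7322 in total marrow, 4746, 4657 and 3347 in cKit-negative cells, and 2144, 2098 and 2632 in stem-enriched cells. Lineage-depleted marrow gave 2313, 2356 and 1476, and cKit-positive cells 904.6, 480.2 and 802. The cKit-positive samples lay below all others and the total marrow samples above all others, so that the stem-enriched cells stood in the middle. The level was 9.93-fold lower in cKit-positive cells than in total marrow (-3.31 ± 0.29, adjusted p = 1.3e-06, range over alternatives 1.81e-06 to 0.0171) and 5.97-fold lower than in cKit-negative cells (-2.58 ± 0.29, adjusted p = 2.12e-05, range 2.09e-05 to 0.00823).

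Stem-enriched cells had more Trp53inp1 than cKit-positive cells (1.70 ± 0.29, adjusted p = 0.00533, range over alternatives 0.00453 to 0.203), with 1.88 within chip lot 1 (adjusted p = 0.0439). It was lower in stem-enriched cells than in total marrow (-1.62 ± 0.29, adjusted p = 0.00132, range 0.000207 to 0.0837), and lower in lineage-depleted than in total marrow (-1.80 ± 0.29, adjusted p = 0.00333, range 0.000534 to 0.0948). These 3 calls stood without any 1 sample. The call of cKit-positive cells below lineage-depleted marrow (-1.51 ± 0.29, adjusted p = 0.0113, range 0.00895 to 0.699) was lost without lineage-depleted replicate 1 (0.0696) or 2 (0.0821), and in chip lot 2 the difference was -0.71 (0.699). Stem-enriched and lineage-depleted cells, neighbours in the order, differed by 0.19 ± 0.29 (adjusted p = 0.83). The second probe set, 1416927_at, gave at most 529.5 in every sample but cKit-positive replicate 2 and did not pass the filter.

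Ier3, an immediate early gene, resembled Cdkn1a. Its signal was 11908, 24841 and 16604 in stem-enriched cells, 12032, 10264 and 9294 in cKit-negative cells, and 6822, 8851 and 9349 in lineage-depleted marrow. It was 6452, 2429 and 5297 in cKit-positive cells and 3511, 3560 and 4425 in total marrow. The stem-enriched samples lay above all cKit-positive, lineage-depleted and total marrow samples and overlapped only cKit-negative replicate 1. The differences from lineage-depleted marrow (1.04 ± 0.32, adjusted p = 0.113) and cKit-negative cells (0.70 ± 0.32, adjusted p = 0.212) did not pass. Ier3 was higher in stem-enriched cells than in total marrow by 2.16 ± 0.32 (4.46-fold, adjusted p = 0.000223, range over alternatives 6.38e-06 to 0.0032) and than in cKit-positive cells by 1.96 ± 0.32 (adjusted p = 0.00334, range 0.00167 to 0.244), and 2.24 within chip lot 1 (adjusted p = 0.0461). With the Gapdh ratio as a covariate the second difference was 1.13 (adjusted p = 0.125). In cKit-positive cells it was lower than in cKit-negative cells (-1.26 ± 0.32, adjusted p = 0.0161, range 0.00616 to 0.107), a call lost without cKit-negative replicate 1 (0.0614) or 2 (0.0544). Its call between cKit-negative cells and total marrow (1.46 ± 0.32, adjusted p = 0.0452, range 0.00266 to 0.199) was lost without any of 10 samples: stem-enriched replicate 3 (0.0636), all cKit-negative (0.104, 0.141 and 0.144), all total marrow (0.118, 0.199 and 0.142) and all lineage-depleted replicates (0.06, 0.0664 and 0.0657).

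Gadd45a, the DNA damage-inducible member of its family, ran the other way. The signal was 675.3, 359.4 and 396.9 in the stem-enriched, 996.8, 745.3 and 1926 in the cKit-positive samples, and 1695, 1513 and 1341 in lineage-depleted marrow. In cKit-negative cells it was 3583, 3946 and 2580, and in total marrow 3786, 6594 and 5423. All 3 stem-enriched samples lay below every other sample of the 5 populations. The level was 11.2-fold lower in stem-enriched cells than in total marrow (-3.49 ± 0.34, adjusted p = 3.66e-06, range over alternatives 6.58e-07 to 0.000941) and 7.23-fold lower than in cKit-negative cells (-2.85 ± 0.34, adjusted p = 3.49e-05, range 5.94e-06 to 0.0142). Within chip lot 1 the second difference was -2.80 (adjusted p = 0.0142).

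The difference in Gadd45a between stem-enriched and cKit-positive cells, neighbours in the order, was -1.30 ± 0.34 and did not pass (adjusted p = 0.0547), but it passed without cKit-positive replicate 1 (0.0498) or 2 (0.0146) or stem-enriched replicate 1 (0.0278). The level was also lower in stem-enriched cells than in lineage-depleted marrow (-1.72 ± 0.34, adjusted p = 0.0102, range 0.00239 to 0.184), a call lost without stem-enriched replicate 2 (0.0711) or 3 (0.0612) or lineage-depleted replicate 1 (0.059). The cKit-positive cells were in turn below total marrow (-2.19 ± 0.34, adjusted p = 0.000297, range 7.24e-05 to 0.0221) and cKit-negative cells (-1.56 ± 0.34, adjusted p = 0.00601, range 0.00111 to 0.165), where the value among samples of the shared scan day was -1.47 (adjusted p = 0.143). Lineage-depleted marrow was below total marrow (-1.77 ± 0.34, adjusted p = 0.00819, range 0.00164 to 0.0986), a call lost without total marrow replicate 2 (0.0539).

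**Figure D3:**
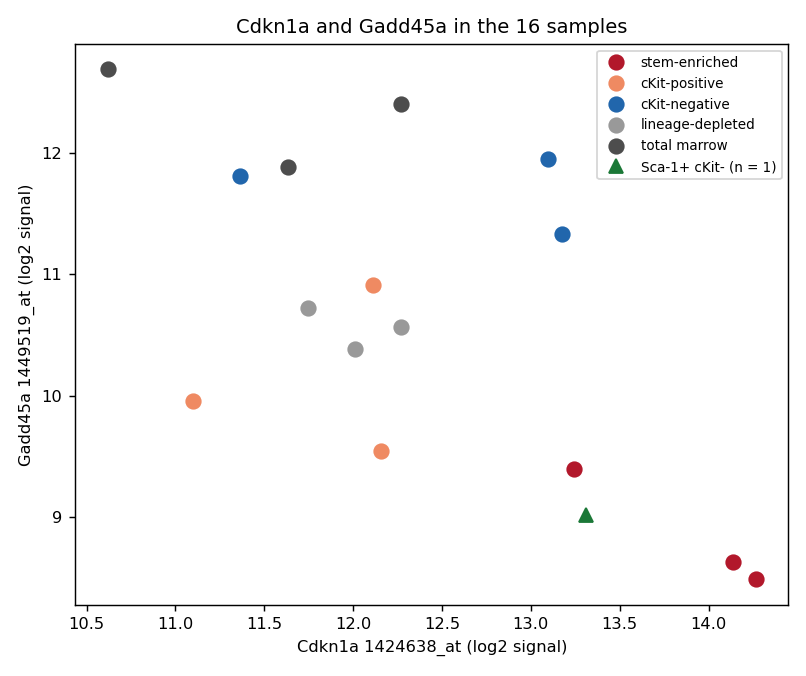
Log2 signal of Cdkn1a (horizontal axis) and Gadd45a (vertical axis) in the 16 samples, coloured by population, with the single Lin-Sca-1+cKit- sample as a triangle. The 3 stem-enriched samples lie at the lower right, with Cdkn1a signals of 9698 to 19716 and Gadd45a signals of 359.4 to 675.3.

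Gadd45b, the family member induced by NF-kappa B and by TGF-beta, showed small differences between populations. Probe set 1449773_s_at gave 1706, 1800 and 2172 in stem-enriched cells and 1092 to 1667 in the 12 other samples. The stem-enriched samples were thus the highest 3, but by a margin of 0.65 ± 0.21 (log2) or less against any population, and the lowest adjusted p over the contrasts was 0.137. The other probe sets, 1420197_at and 1450971_at, ranged from 427.5 to 1710 and from 619.9 to 1706. On 1420197_at the stem-enriched samples lay above all cKit-negative and total marrow samples, and on 1450971_at above all cKit-positive samples. All other pairs of populations overlapped on these probe sets. Of the 30 contrasts of the 3 probe sets limma called 0, and 2 had an unadjusted p under 0.05. With the Gapdh ratio as a covariate 1420197_at passed as higher in stem-enriched cells than in cKit-negative cells (1.36, adjusted p = 0.0212) and total marrow (1.11, adjusted p = 0.0401). When cKit-positive replicate 2 was left out, it passed as higher in stem-enriched than cKit-negative cells (0.93, adjusted p = 0.0479), and without their replicate 1 as higher in cKit-positive than cKit-negative cells (1.23, adjusted p = 0.0401).

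Gadd45g, the third family member, was dim. Its signal was 84.62, 26.84 and 546 in the stem-enriched and 466.3, 119.3 and 176 in the cKit-positive samples, where 3 of these 6 values lay under the floor. The cKit-negative samples gave 1031, 747.3 and 811.4, total marrow 1577, 937.8 and 655.3, and lineage-depleted marrow 585.3, 247.4 and 171.1. The cKit-negative and total marrow samples lay above all 9 others. The differences from total marrow were -2.02 ± 0.57 for stem-enriched (adjusted p = 0.0251, range over alternatives 0.00973 to 0.436) and -2.06 ± 0.57 for cKit-positive cells (0.0204, range 0.00722 to 0.273), and that between cKit-positive and cKit-negative cells was -1.85 ± 0.57 (0.0459, range 0.0175 to 0.147). The first was lost without stem-enriched replicate 1 (0.0924) or 2 (0.105) or total marrow replicate 1 (0.114) or 2 (0.0754), and the second without cKit-positive replicate 2 (0.0526) or 3 (0.0621) or total marrow replicate 1 (0.096) or 2 (0.0611). The third was lost without any of 9 samples, namely cKit-positive replicates 2 (0.105) and 3 (0.115), all cKit-negative (0.131, 0.106 and 0.0923) and all total marrow replicates (0.0543, 0.0641 and 0.0558), and lineage-depleted replicate 2 (0.0569). With values this close to the floor the size of these differences depends on it.

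Btg1 is an antiproliferative partner of the CCR4-NOT deadenylase, known for its high level in resting lymphocytes. Its adjusted p in the F test (6.61e-07 on 1426083_a_at) was the lowest of the genes other than Plk2. Probe set 1426083_a_at gave 23847, 27333 and 25639 in cKit-negative samples, 15766, 16641 and 17556 in total marrow, and 3564, 4101 and 4183 in cKit-positive cells. Stem-enriched cells gave 5684, 9529 and 8131, and lineage-depleted marrow 7156, 6482 and 8140. The cKit-negative samples lay above all others, the total marrow samples came next without overlap, and the cKit-positive samples lay below all others. The difference between cKit-negative cells and total marrow was not called, however (0.62 ± 0.20, adjusted p = 0.201). It was not called on 1437455_a_at (0.40 ± 0.29, 0.725), where samples overlapped, or on 1442018_at (0.76 ± 0.31, 0.343). Btg1 was 6.49-fold lower in the cKit-positive than the cKit-negative cells (-2.70 ± 0.20, adjusted p = 2.71e-07, range over alternatives 2.24e-07 to 0.00316), with -2.68 within chip lot 1 (adjusted p = 0.00147) and -2.63 among samples of the shared scan day (0.00316). Stem-enriched cells were 3.36-fold below cKit-negative cells (-1.75 ± 0.20, adjusted p = 2.62e-05, range 5.75e-06 to 0.00785), with -1.80 within chip lot 1 (0.00785). The other probe sets differed on the size of this gap, with -1.94 ± 0.31 on 1442018_at (adjusted p = 0.000417, range 3.6e-05 to 0.00499) but -0.65 ± 0.29 on 1437455_a_at, where the samples overlapped (adjusted p = 0.211).

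The Btg1 order below total marrow was stem-enriched and lineage-depleted, which differed by 0.07 ± 0.20 (adjusted p = 0.911), and then cKit-positive cells. The stem-enriched cells were above the cKit-positive cells by 0.95 ± 0.20 (adjusted p = 0.0196, range over alternatives 0.00483 to 0.309), a call lost without stem-enriched replicate 2 (0.116) or 3 (0.0963), and within chip lot 1 the value was 0.88 (0.194). A second probe set, 1437455_a_at, gave 1.75 ± 0.29 for the same difference (adjusted p = 0.00426, range 0.00054 to 0.186), which stood without any 1 sample and was 1.69 within chip lot 1 (0.0998). On the third, 1442018_at on chip B, the same difference was 0.61 ± 0.31 with overlapping samples and did not pass (adjusted p = 0.343). That probe set gave 3418, 2202 and 4792 in cKit-positive cells and 16053, 24122 and 18584 in cKit-negative cells, a difference of -2.55 ± 0.31 (adjusted p = 2.04e-05, range 1.32e-05 to 0.00482). The 3 Btg1 probe sets correlated with r = 0.766 to 0.928 over the 15 samples, and all of them put cKit-negative cells first and cKit-positive cells last. Each also put cKit-negative cells above lineage-depleted marrow, where 1426083_a_at (1.82 ± 0.20, adjusted p = 0.000753, range 0.000168 to 0.171) and 1442018_at (1.61 ± 0.31, adjusted p = 0.0141, range 0.00149 to 0.11) were called. The second of these was lost without cKit-negative replicate 2 (0.11) or lineage-depleted replicate 1 (0.0673), 2 (0.0628) or 3 (0.0533). The calls of cKit-positive cells below lineage-depleted marrow were fragile. That on 1426083_a_at (-0.88 ± 0.20, adjusted p = 0.0395, range 0.0165 to 0.25) was lost in 11 of the 15 fits without 1 sample. That on 1437455_a_at (-1.24 ± 0.29, adjusted p = 0.0498, range 0.0122 to 0.224) was lost in 14 of them.

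Btg2, a p53 target of the same family, had its highest mean in total marrow. Probe set 1448272_at gave 7791, 16345 and 15316 there, 13130, 5046 and 4636 in cKit-negative cells, and 6215, 7450 and 5514 in lineage-depleted marrow. Stem-enriched cells gave 6991, 6736 and 4612, and cKit-positive cells 3415, 2605 and 2509. The cKit-positive samples again lay below all others, and 1 cKit-negative sample, replicate 1, stood well above its 2 companions. Btg2 was 4.44-fold lower in cKit-positive cells than in total marrow (-2.15 ± 0.35, adjusted p = 0.000522, range over alternatives 6.68e-05 to 0.0745). On this probe set no other population was called different from total marrow. The adjusted p was 0.34 for cKit-negative cells, 0.14 for lineage-depleted marrow and 0.0564 for stem-enriched cells. The difference between cKit-positive and cKit-negative cells was -1.26 ± 0.35 (adjusted p = 0.0287, range 0.0191 to 0.167), a call lost without cKit-positive replicate 2 (0.0502) or 3 (0.0718) or cKit-negative replicate 1, where it was -0.78 (0.133). The 3 remaining populations, cKit-negative, lineage-depleted and stem-enriched cells, differed from each other by -0.17 ± 0.35 to 0.09 ± 0.35. The second probe set, 1416250_at, correlated with the first with r = 0.871 and was likewise called lower in cKit-positive cells than in total marrow (-1.66 ± 0.28, adjusted p = 0.000601, range 0.00036 to 0.0436).

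**Figure D4:**
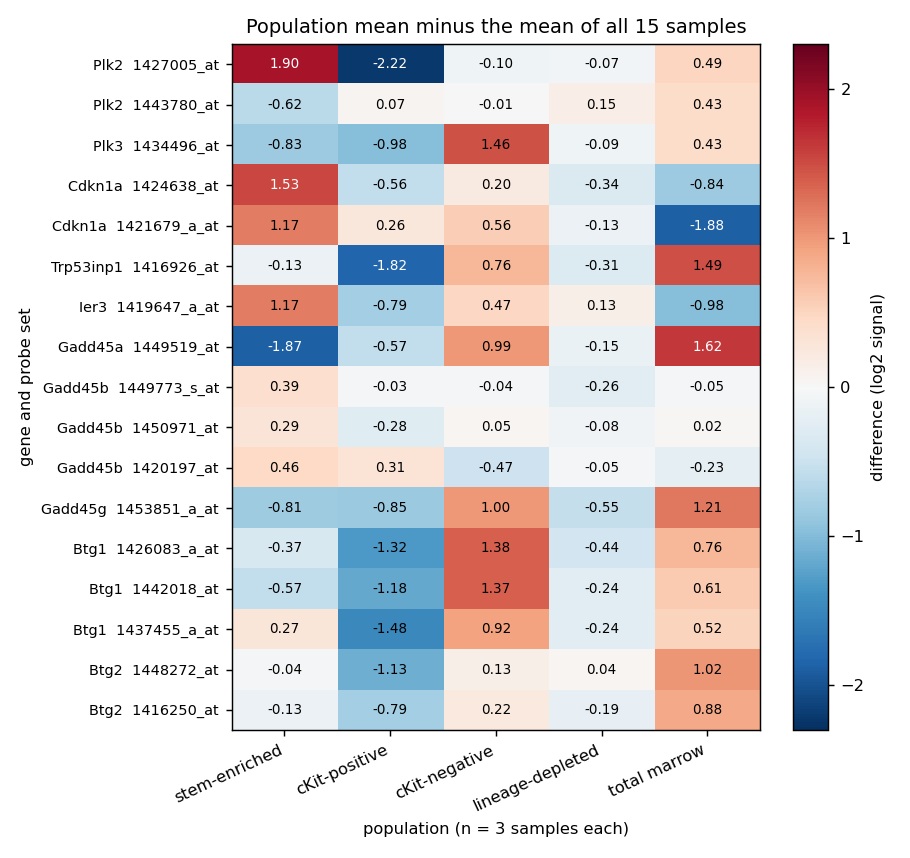
Mean log2 signal of each population (columns, n = 3 samples each) minus the mean of all 15 samples, for the 17 tested probe sets of the 10 genes (rows). Red marks higher and blue lower than the mean. Plk2 1427005_at runs from 1.90 in stem-enriched to -2.22 in cKit-positive cells, and Gadd45a from -1.87 in stem-enriched cells to 1.62 in total marrow.

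Taken over the representative probe sets, the genes were grouped by the population of their highest and lowest mean, a ranking that the fits often did not separate. Plk2, Cdkn1a, Ier3 and Gadd45b had their highest mean in stem-enriched cells, Plk3 and Btg1 in cKit-negative cells, and Gadd45a, Gadd45g, Btg2 and Trp53inp1 in total marrow. None of the genes highest in cKit-negative cells or total marrow was called between these 2 populations (limma adjusted p = 0.201 to 0.952). The lowest mean lay in cKit-positive cells for Plk2, Plk3, Gadd45g, Btg1, Btg2 and Trp53inp1, in total marrow for Cdkn1a and Ier3, in stem-enriched cells for Gadd45a and in lineage-depleted marrow for Gadd45b. Cdkn1a and Ier3 were not called between cKit-positive cells and total marrow (adjusted p = 0.732 and 0.724). Gadd45g was not called between stem-enriched and cKit-positive cells (0.987), and Gadd45b had no call. Across the 15 samples, which share these population differences and their arrays, the strongest pairs were Btg2 with Trp53inp1 (r = 0.865), Btg1 with Trp53inp1 (r = 0.842) and Plk3 with Btg1 (r = 0.796). Cdkn1a went with Gadd45b (r = 0.709) and Ier3 (r = 0.690), and against Gadd45a (r = -0.615). Without cKit-positive replicate 2 these 6 values were 0.837, 0.829, 0.827, 0.708, 0.768 and -0.648.

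Plk2 itself correlated with Cdkn1a at r = 0.601, Ier3 at 0.589 and Trp53inp1 at 0.516, and with Plk3 at 0.213. Without cKit-positive replicate 2 these values were 0.701, 0.427, 0.294 and 0.215, so that of Trp53inp1 rests in part on that sample. Among 13493 genes with a tested probe set, 495 were more like Plk2 than Cdkn1a was. The 5 most alike were Ccdc58 (r = 0.918), 9030619P08Rik (0.871), Appl1 (0.869), Tuba1a (0.856) and Gcnt2 (0.838), over 15 samples. Gcnt2, an acetylglucosaminyltransferase, had a mean log2 signal of 12.57 ± 0.18 (SD, n = 3) in stem-enriched, 9.95 ± 0.48 in cKit-positive and 11.69 ± 0.69 in total marrow cells. Without cKit-positive replicate 2 the correlations of these 5 genes were 0.776 to 0.888.

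Lists of related genes were examined for the same populations, each gene by 1 probe set, and give no independent support, having been drawn up with earlier results of these data known. Among 18 tested genes of the p53 pathway 7 passed the F test, against 17.3% of all tested probe sets, without a common direction: the list's median difference between stem-enriched and cKit-positive cells was 0.03 on the log2 scale against -0.03 over all tested probe sets. Perp, a p53 target of cell adhesion, was lower in cKit-positive than cKit-negative cells (-2.53, adjusted p = 7.04e-05), while the nuclease gene Aen was higher there by 1.10 (adjusted p = 0.00671). Against cKit-negative cells, the DNA damage sensor gene Xpc was higher in stem-enriched cells by 1.38 (adjusted p = 0.000198), and Apaf1, a caspase activator, was lower (-1.31, adjusted p = 0.00181). Sesn1, named after its values were seen, was the one p53 pathway gene called between stem-enriched and cKit-positive cells (1.04, adjusted p = 0.0148).

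Of 20 tested immediate early genes 11 passed the F test (all probe sets 17.3%). Between stem-enriched and cKit-positive cells 5 were higher and none lower (2.23% of all probe sets called), with a median difference of 1.18 against -0.03 over all tested probe sets, and between cKit-positive and cKit-negative cells 6 were lower and 1 higher (11.5% of all called), with a median of -1.23 against 0.08. Between stem-enriched and cKit-negative cells 1 of the 20 was called (8.48% of all). Socs3, an inhibitor of cytokine signalling, was higher in stem-enriched than cKit-positive cells by 3.93 (adjusted p = 2.34e-05), the nuclear receptor gene Nr4a1 by 3.26 (0.000168), Klf4 by 2.15 (0.0123) and Rgs1 by 2.01 (0.00764). Socs3 and Klf4 were lower in cKit-positive than cKit-negative cells (-3.29, adjusted p = 8.39e-06, and -3.33, adjusted p = 6.01e-05), and Myc, named after its values were seen, was the gene that was higher there (2.12, adjusted p = 0.00164). Both comparisons share the cKit-positive samples.

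Of 24 tested proliferation genes 5 passed the F test (all probe sets 17.3%), 2 were lower in cKit-positive than cKit-negative cells (11.5%), and 1 was lower in stem-enriched than cKit-negative cells (8.48%). These counts lie near or below the shares of all probe sets and are no result about the list. Against total marrow 6 were lower and 1 higher in stem-enriched cells (14.4%), with a median difference of -0.36 against 0.12 over all tested probe sets. Mki67, the proliferation antigen, was lower in stem-enriched cells than in total marrow (-1.54, adjusted p = 0.000825), as were Cdc20 (-1.12, 0.00109), the mitotic kinase gene Plk1 (-1.51, 0.00856) and Rrm2, a subunit of ribonucleotide reductase (-1.46, 0.0197).

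The partner lists lay below the share of all probe sets that passed the F test (17.3%), so their F test counts are no result about these lists. They were 2 of 14 Gadd45 partners and stress kinases (Map2k4 and Mapk13), 1 of 10 genes of the BTG/TOB family and deadenylase complex (Prmt1), and 2 of 15 genes of the unfolded protein and integrated stress responses (Ddit4 and Eif2ak3). Mapk13, a p38 kinase gene, was lower in stem-enriched cells than in total marrow (-3.50, adjusted p = 0.00178), and Prmt1, an arginine methyltransferase that binds Btg proteins, was higher by 1.58 (adjusted p = 0.00153). Ddit4, a stress-induced inhibitor of mTOR signalling, was higher, like Cdkn1a and Ier3, in stem-enriched than cKit-positive cells by 1.65 (adjusted p = 0.0114). Eif2ak3, the PERK kinase gene, was lower in cKit-positive than cKit-negative cells (-1.36, adjusted p = 0.00223). In that contrast 4 of the 15 genes of the unfolded protein and integrated stress responses were lower and none higher (11.5% of all called). Of the 10 BTG/TOB and deadenylase genes 3 were higher and none lower in stem-enriched cells than in total marrow (14.4%). Both contrasts were picked after their counts were seen.

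**Figure D5:**
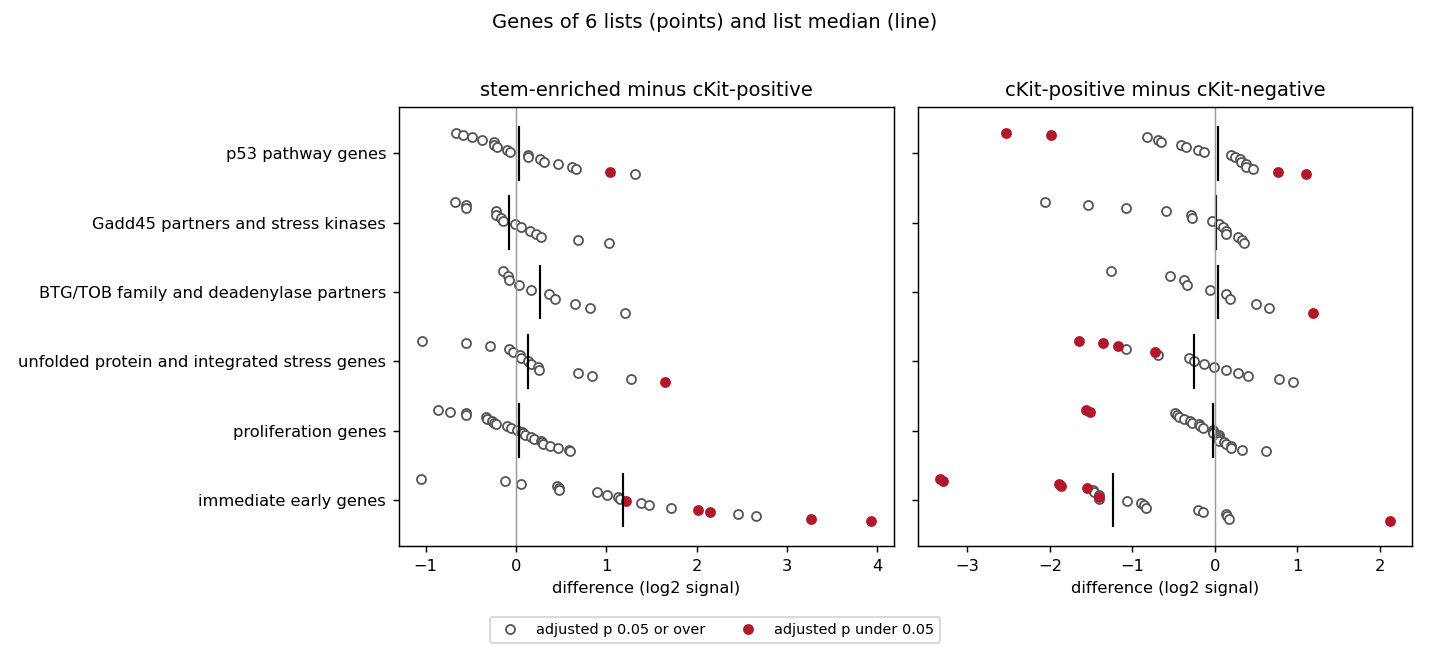
Difference in log2 signal (horizontal axes) of each gene of 6 lists between stem-enriched and cKit-positive cells (left) and between cKit-positive and cKit-negative cells (right). Filled points passed the limma adjusted p threshold of 0.05, and black lines are list medians, which for the immediate early genes stand at 1.18 and -1.23.

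Markers of blood cell lineages moved with some of these differences. The summed signal of 8 T and NK cell markers was 35388 to 63102 in cKit-negative cells, where Btg1 and Plk3 were highest, against 6930 to 28903 in the other 4 populations, and 2 of the 8 lay at the floor in all stem-enriched samples. The granulocyte sum was highest in total marrow, as were the means of Gadd45a, Gadd45g, Btg2 and Trp53inp1. It stood at 201706 to 358772 in cKit-positive and 110153 to 253421 in stem-enriched cells. The list, which holds Mpo and Elane, is not limited to mature granulocytes, and its sum does not stand for each marker. Between cKit-positive and cKit-negative cells 7 of the 9 granulocyte markers were called lower and 2 higher, with a median log2 difference of -4.70. The sum of 4 monocyte markers was 40971 to 59591 in cKit-negative and 14975 to 34598 in stem-enriched cells, and that of 6 B lineage markers was 18740 to 29959 in total marrow and at most 13148 in the other 4 populations. The erythroid sum of 5 markers was 80292 to 115866 in total marrow and 2473 to 5493 in stem-enriched cells, with no marker at the floor in all samples of either. It was 21971 to 94873 in cKit-negative cells, overlapping total marrow, 45507 to 61691 in lineage-depleted marrow and 13093 to 29576 in cKit-positive cells. The part of these cells in the differences of the 10 genes was not tested.

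The single Lin-Sca-1+cKit- sample was set against the range of the 15 others, with no test. It lay above all of them in 3 of 17 member probe sets and below them in none, while 7.33% of all tested probe sets lay above and 6.25% below. Btg1 1426083_a_at reached 30983 there, above the highest other value of 27333. On 1437455_a_at and 1442018_at Btg1 was 12551 and 17751, below the highest other values of 13594 and 24122. Gadd45b reached 3089 and 2422 on 1449773_s_at and 1450971_at, above 2172 and 1706. On 1420197_at Gadd45b was 636.8, within the range of 427.5 to 1710 in the 15 others. Cdkn1a at 10142 and Gadd45a at 518.3 lay within the range of the stem-enriched samples. Trp53inp1 at 8077 lay within that of total marrow, and Ier3 at 3005 below it. Plk2 was 2878, below the stem-enriched range. The summed T and NK marker signal of this sample was 56972, within the cKit-negative range.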

How the data were processed

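RNA from 16 samples was hybridised to 32 arrays, 1 MOE430A (chip A, 22626 probe sets) and 1 MOE430B (chip B, 22411 probe sets) per sample. The deposited values are MAS5 signal intensities on a linear scale, computed and scaled to a common trimmed mean by the authors, per the submitters' processing notes and the values; its version is not given in sources used here. Deposited instrument record fields (other text values, per the file headers) gave chip lot, scan day and the stem-enriched gate.

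Signals under the 25th percentile of the chip (162.3 for chip A and 268.1 for chip B) were set to that percentile before log2 was taken. Probe sets above the chip median (535.3 and 843.8) on at least 3 of the 15 replicated arrays were tested, with 100 probe sets shared by both chips taken from A. Each chip was fitted over 5 populations with limma 3.58.1 (R 4.3.3, lmFit and eBayes with trend), giving 10 contrasts and an F test, each adjusted by Benjamini-Hochberg over both chips. Tables and figures used Python 3.11.15 with NumPy 2.4.6, pandas 2.3.3 and matplotlib 3.10.9. The fit was tested on simulated data. The number of arrays limits the precision.

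Probe sets were named from the platform annotation, where 20380 on A and 14565 on B have 1 symbol, 691 and 241 have several, which were not named, and the rest have none. A gene with several probe sets is represented by the one with the highest mean. Members and lists were chosen with earlier results of these data known, and up to 4 genes of each list were named, those with the lowest adjusted p in the F test among those past the threshold, with any other named after seeing its values. Sample numbers did not pair the samples: deviations of same-numbered samples correlated at -0.083 to 0.12 (median 0.015, 30 pairs), those of others at -0.095 to 0.092 (60 pairs).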

Additional observations from a re-analysis of the deposited data

How the results depend on the processing

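Of the 50 member calls, quantile normalization kept 46, no floor 44, a higher floor (50th percentile) 45, leaving out the filter 33, chip lot as a block 36, scan day as a random block 36, the Gapdh ratio as a covariate 39 and fits of the compared populations alone 34. None reversed. The replicate number as a block kept 47 and left 0 called between cKit-negative cells and total marrow, although the numbers do not pair the samples. Fits within a lot hold few arrays, and the causes of the other changes were not tested.

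Member calls, with Plk2 counted in contrasts without stem-enriched cells, moved by over 1.5 times as follows. Between stem-enriched and cKit-positive cells 5 became 3 with scan day as a block, 1 with the Gapdh covariate, 0 with only these populations and 2 within chip lot 1. Between stem-enriched and lineage-depleted cells 2 became 1 with quantile normalization, no floor, the higher floor or no filter, and 0 with either block. Against total marrow the stem-enriched 9 became 4 with the lot block. Between cKit-positive and cKit-negative cells 11 became 5 without the filter, 5 with only these populations, 4 within lot 1 (1 of them on chip B, which has no lot fit and keeps its call) and 6 within the shared scan day, an alternative chosen after seeing the data. Between cKit-positive and lineage-depleted cells 3 became 1 without the filter or with the Gapdh covariate, and 0 with either block, with only these populations or within lot 2. Between cKit-negative and lineage-depleted cells 2 became 5 with the Gapdh covariate, 6 with only these populations and 0 within lot 3. Between cKit-negative cells and total marrow 1 became 0 with quantile normalization, no floor, no filter or either block, and 2 with only these populations. Between lineage-depleted and total marrow 4 became 9 with only these populations and 0 within lot 2.

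Leaving out 1 sample gave 3 to 6 member calls between stem-enriched and cKit-positive cells, 3 to 8 against cKit-negative cells, 0 to 3 against lineage-depleted and 6 to 10 against total marrow. It gave 6 to 11 between cKit-positive and cKit-negative cells, 0 to 3 against lineage-depleted and 8 to 10 against total marrow, 1 to 5 and 0 to 1 for cKit-negative cells against those marrows, 2 to 6 between both marrows and 9 to 12 in the F test.

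Counts over all probe sets moved as well. The lowest and highest over all alternatives, beside the main count, were 3 and 1232 beside 638 for stem-enriched against cKit-positive cells, 995 and 4247 beside 2426 against cKit-negative cells, 191 and 1509 beside 672 against lineage-depleted and 1789 and 6208 beside 4107 against total marrow. For cKit-positive cells they were 595 and 3771 beside 3282, 100 and 686 beside 360, and 2122 and 5859 beside 4894 against cKit-negative, lineage-depleted and total marrow cells. For cKit-negative cells they were 0 and 1764 beside 441 and 19 and 726 beside 193 against those marrows, and 195 and 2874 beside 1209 between both marrows. The F test gave 3473 to 7269 beside 4953. Signals at the floor, such as Plk2 in 2 cKit-positive samples, have no order among themselves, and folds against them depend on it.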
